A study of Mus musculus with 12 samples.

Results

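Macrophages in tumours release proteins that join the provisional matrix and the fibrin clot, and 9 such genes are described here across sorted tumour macrophages of the mouse. They are 3 matrix glycoproteins (Fn1, Thbs1 and Tgfbi), 3 coagulation genes (F13a1, F10 and F3) and 3 fibrinolysis genes (Plau, Plaur and Serpinb2). They were chosen by symbol as genes of these functions that macrophages make, with earlier results of these data known. The 9 are part of 24346 symbols, each listed in 1 row per library. All 9 passed the filter on low values (at least 1 FPKM in at least 3 libraries), which 11808 genes passed. FPKM counts fragments per length of transcript and per size of library.

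Bulk RNA-seq was done on RFP+ and RFP- macrophages from tumours of Arg1-RFP mice, in which red fluorescent protein reports the arginase gene Arg1. The tumours were B16F10, a mouse melanoma line, or MC38, a mouse colon carcinoma line. The 4 groups of 3 libraries were RFP+ and RFP- cells of B16F10 tumours (title numbers 12, 11 and 3) and RFP+ and RFP- cells of MC38 tumours (title numbers 1, 2 and 3). Every group carried the reporter allele and passed the same sort, which kept cells that carry CD45, CD11b, F4/80 and MHCII and lack Ly6G, Ly6C, B220, CD90.2 and NK1.1, so by their labels the groups within a tumour differ in the RFP gate. The labels give no age, sex, time after injection or treatment, and no animal for a library. Because whole sorted populations were measured, fewer cells that express a gene and less of its RNA per cell cannot be told apart.

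As background, vessels in tumours leak plasma. Tissue factor (F3) then binds factor VIIa and activates factor X (F10), thrombin cuts fibrinogen to fibrin, and factor XIII, whose catalytic chain is F13a1, crosslinks fibrin strands to each other and to fibronectin (Fn1). Thrombospondin 1 (Thbs1) and the secreted protein encoded by Tgfbi bind cells and collagen in this matrix. Urokinase (Plau), held at the cell surface by its receptor (Plaur), turns plasminogen into plasmin, which dissolves fibrin, and Serpinb2 encodes plasminogen activator inhibitor 2, an inhibitor of urokinase.

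Promoter sequences were available for 6 of the 9 members (RefSeq, GRCm38.p6), each running from 250 bases before to 50 bases after an annotated start. F13a1 and Serpinb2 had 2 windows each, of which only the one furthest upstream is described. Of these, 4 are shown: F13a1, Plaur and Serpinb2, which were higher in RFP+ cells in at least 1 comparison below, and F3, which differed mainly between tumours. Capitals mark matches, on either strand, to the AP-1 motif TGANTCA, the PU.1 core GAGGAA, the C/EBP motif TTGCNNAA, the HIF core ACGTG, the GC box GGGCGG and the TATA box TATAAA.
F13a1 promoter (minus strand, chr13:37050195-37050494): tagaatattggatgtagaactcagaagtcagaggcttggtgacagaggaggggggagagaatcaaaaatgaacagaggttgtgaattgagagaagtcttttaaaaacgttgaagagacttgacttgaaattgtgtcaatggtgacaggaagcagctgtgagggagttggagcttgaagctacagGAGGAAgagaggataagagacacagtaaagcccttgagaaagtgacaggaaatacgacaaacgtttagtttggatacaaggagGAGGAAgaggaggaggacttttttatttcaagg
Plaur promoter (plus strand, chr7:24462233-24462532): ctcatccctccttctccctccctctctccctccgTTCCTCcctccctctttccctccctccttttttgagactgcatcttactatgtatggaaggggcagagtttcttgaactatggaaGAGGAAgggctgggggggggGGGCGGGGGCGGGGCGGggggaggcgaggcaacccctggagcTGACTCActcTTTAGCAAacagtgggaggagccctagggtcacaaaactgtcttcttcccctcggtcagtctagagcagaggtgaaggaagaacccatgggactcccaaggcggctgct
Serpinb2 promoter (plus strand, chr1:107511173-107511472): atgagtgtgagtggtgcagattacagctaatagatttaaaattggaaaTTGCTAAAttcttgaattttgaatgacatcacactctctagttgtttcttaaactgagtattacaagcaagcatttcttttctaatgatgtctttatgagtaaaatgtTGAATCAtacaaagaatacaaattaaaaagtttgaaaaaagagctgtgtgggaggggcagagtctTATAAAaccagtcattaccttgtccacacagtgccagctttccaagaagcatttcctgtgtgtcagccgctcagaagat
F3 promoter (plus strand, chr3:121723287-121723586): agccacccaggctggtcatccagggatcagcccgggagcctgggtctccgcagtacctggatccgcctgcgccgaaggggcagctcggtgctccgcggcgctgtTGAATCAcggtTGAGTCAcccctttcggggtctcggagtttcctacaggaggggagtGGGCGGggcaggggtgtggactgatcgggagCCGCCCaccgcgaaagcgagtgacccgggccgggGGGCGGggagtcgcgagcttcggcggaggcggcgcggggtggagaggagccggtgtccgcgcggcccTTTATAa
The F13a1 window held 2 PU.1 cores and none of the other 5 motifs. In the Plaur window, 1 AP-1 match lay beside 1 C/EBP match, after 3 GC boxes that run into each other, with 2 PU.1 cores further upstream. The Serpinb2 window held 1 AP-1 match, 1 C/EBP match and a TATA box that begins 29 bases before the start, while the F3 window held 2 AP-1 matches, 3 GC boxes and a TATA box match on the other strand after the start. Of all 32851 promoter windows, 7.81% held the AP-1 motif, 28.3% the PU.1 core, 10.8% the C/EBP motif, 19.6% the HIF core, 35.7% the GC box and 13.6% the TATA box. A match is a description of the letters and not a binding site.

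The gate followed its label. In B16F10 tumours Arg1 averaged 724 ± 167 FPKM in RFP+ cells, against 81.5 ± 38.2 FPKM in RFP- cells, and in MC38 tumours 473 ± 79.7 FPKM, against 51.7 ± 9.74 FPKM (SD, n = 3 each), with no overlap in either tumour. Libraries of the 2 tumours stood apart. All 12 genes of a macrophage core list were at 1 FPKM or more in every library, but in B16F10 tumours they summed to 6769 to 13090 FPKM (RFP+) and 5301 to 9525 FPKM (RFP-), against 31670 to 33120 FPKM (RFP+) and 23080 to 26220 FPKM (RFP-) in MC38 tumours. In B16F10 libraries all 10 genes of a melanocytic list were at 1 FPKM or more, with sums of 8243 to 10830 FPKM (RFP+) and 8274 to 10830 FPKM (RFP-), against 14.5 to 19.4 FPKM (RFP+) and 11.3 to 14.9 FPKM (RFP-) in MC38 libraries. B16F10 libraries were also shallower: the value that 1 read adds to a gene was 3.01 to 3.63 times that of the deepest library in B16F10, and 1 to 1.18 times in MC38.

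The first comparison asked how Arg1-reporting macrophages differ from the others of the same tumour. Transcripts of fibronectin, thrombospondin 1 and the factor XIII A chain were more abundant in RFP+ than in RFP- cells. In B16F10 tumours they were 2.97 to 3.66 times as abundant (from log2 values of FPKM + 1), and in MC38 tumours 1.65 to 2.59 times. With all 12 libraries these differences passed only in the model with pairing, and that of thrombospondin 1 in MC38 passed in neither model. The differences of tissue factor and urokinase passed in neither tumour. In the model without pairing, 0 of 9 members passed limma's test (adjusted p under 0.05 over all genes kept) in B16F10, against 0.127% of all genes called higher, and 0 of 9 in MC38, against 0.0254%. At an unadjusted p under 0.05 the counts were 3 members in B16F10, against 9.82% of all genes, and 2 in MC38, against 3.35%. Leaving out 1 library, Fn1 passed in B16F10 without RFP- number 3 (adjusted p = 0.0395) and Thbs1 without RFP- number 11 (0.0267). Each passed in only 1 of 12 such fits, with limma's adjusted p up to 0.469 for Fn1 and 0.426 for Thbs1. With the title number as a block, which compares RFP+ and RFP- libraries of the same number, 4 members were called higher in B16F10 (Fn1, Thbs1, F13a1 and Serpinb2), against 0.830% of all genes, and 2 in MC38 (Fn1 and F13a1), against 0.356%. Over both tumours 1 member passed without the block (Fn1, against 0.339% of all genes called higher) and 4 with it (Fn1, Thbs1, F13a1 and Plaur, against 1.32%). No member was called lower in these tests, where 0.0508% (B16F10), 0% (MC38) and 0.110% (both) of all genes were called lower without the block and 0.525%, 0.0847% and 0.601% with it.

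**Figure D1:**
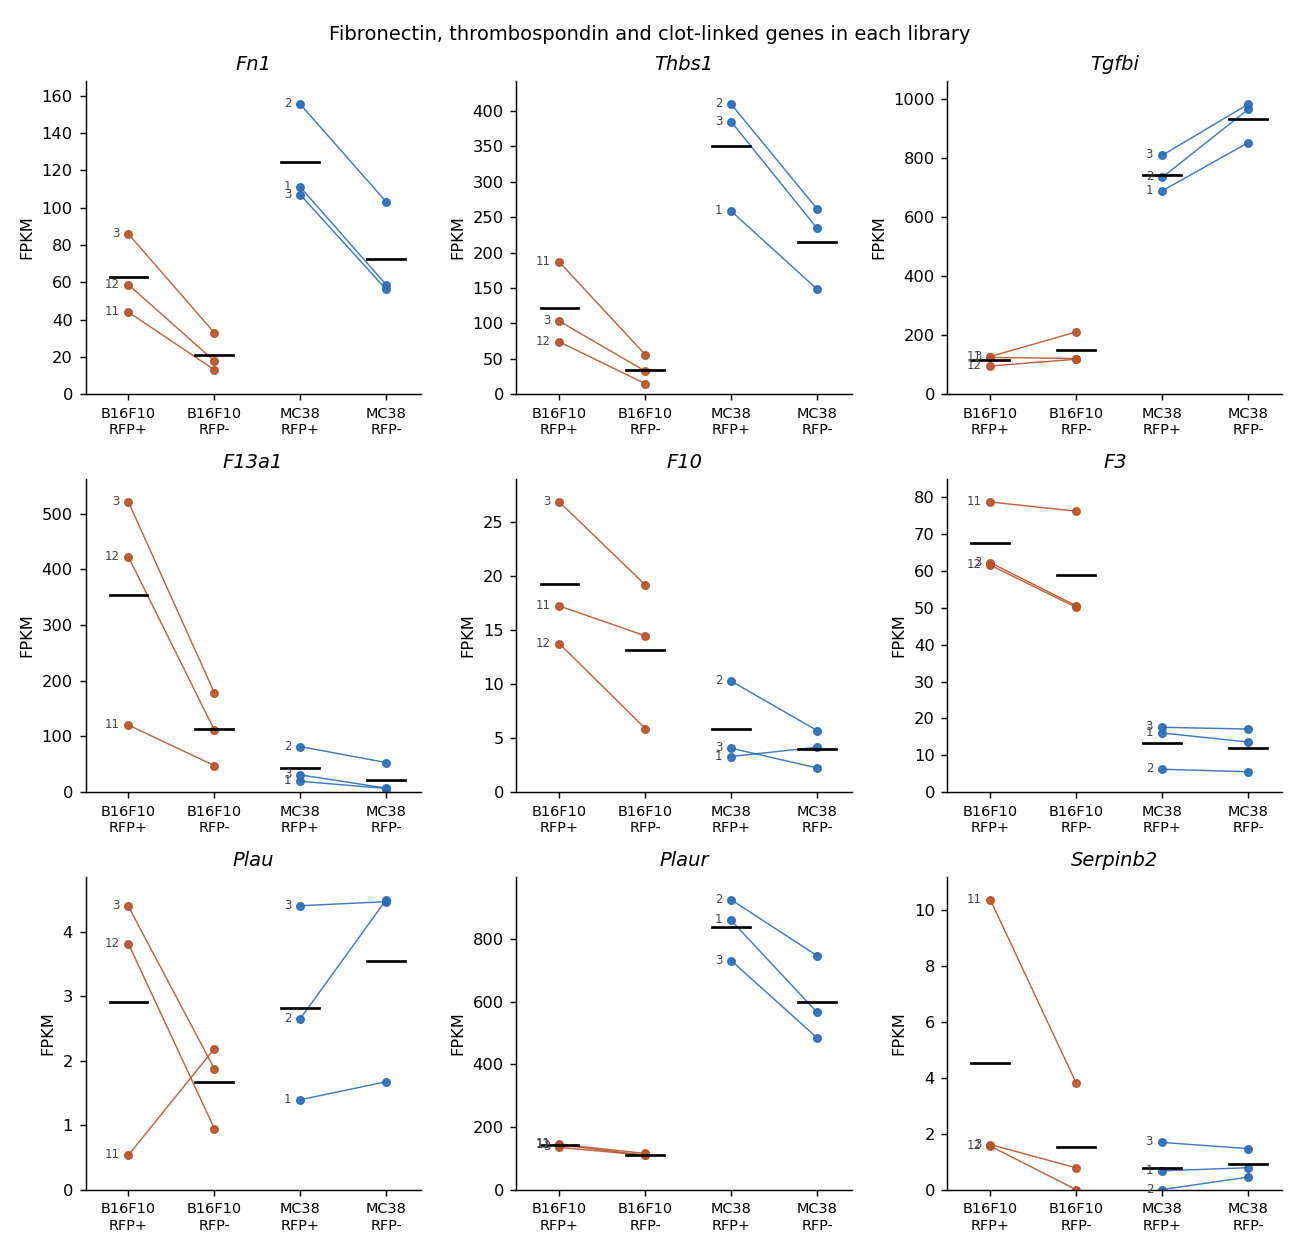
FPKM (linear axes from 0) of the 9 members in the 12 libraries, RFP+ beside RFP- for each tumour. Points are libraries, lines join libraries of 1 title number (printed beside the RFP+ point) and black bars are group means; in Fn1 and Thbs1 all 6 lines slope down to RFP-, while Tgfbi in MC38 slopes up and Plau has no common slope.

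Fn1 (GRCm38 chr1:71585520-71653200, minus strand) encodes fibronectin, which links integrins to collagen and fibrin. It measured 58.6, 44.0 and 85.8 FPKM in RFP+ cells of B16F10 tumours with numbers 12, 11 and 3, against 17.8, 13.03 and 32.9 FPKM in RFP- cells. In MC38 tumours it measured 111, 155 and 107 FPKM in RFP+ cells with numbers 1, 2 and 3, against 58.6, 103 and 56.1 FPKM in RFP- cells. In both tumours every RFP+ library lay above every RFP- library, and the order of the libraries was the same in both gates. The log2 difference was 1.57 ± 0.33 (SE) in B16F10 (limma, adjusted p = 0.117, and 0.000199 with the block) and 0.80 ± 0.33 in MC38 (adjusted p = 1, and 0.0223 with the block). Over both tumours Fn1 rose by 1.19 ± 0.23 (adjusted p = 0.0474, and 6.96e-05 with the block), and it was higher in RFP+ in 6 of 6 pairs. Without the block that call rested on nearly every library: it was kept without B16F10 RFP+ number 11, B16F10 RFP- number 3 or MC38 RFP- number 2, and lost without any 1 of the other 9, with adjusted p between 0.0560 and 0.159 and differences of 1.05 to 1.24. With the block, the MC38 call was lost without the pair numbered 1, 2 or 3 of MC38 (adjusted p = 0.383, 0.117 and 0.314), while the B16F10 call was kept without any 1 of the 6 pairs.

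Thbs1 (chr2:118111876-118127133, plus strand) encodes thrombospondin 1, a glycoprotein that binds CD47 and CD36 and can activate latent TGF-beta. It measured 73.8, 186 and 103 FPKM in RFP+ cells of B16F10 tumours (numbers 12, 11 and 3), against 14.7, 55.7 and 32.4 FPKM in RFP- cells. In MC38 tumours it measured 258, 409.6 and 385 FPKM in RFP+ cells (numbers 1, 2 and 3), against 148, 262 and 234 FPKM in RFP- cells. The gates did not overlap in B16F10, and in MC38 the lowest RFP+ library lay just under the highest RFP- library, but each RFP+ library exceeded its RFP- partner. The log2 difference was 1.87 ± 0.42 in B16F10 (limma, adjusted p = 0.156, and 0.000102 with the block) and 0.72 ± 0.42 in MC38 (adjusted p = 1, and 0.0524 with the block). By pair, the RFP+ level was 5.03, 3.35 and 3.18 times the RFP- level in B16F10 (numbers 12, 11 and 3) and 1.74, 1.56 and 1.65 times in MC38 (numbers 1, 2 and 3). The 3 MC38 pairs were alike and all below the 3 B16F10 pairs. The difference of the gate effect between tumours was 1.15 with a 95% confidence interval of -0.126 to 2.43 and did not pass (limma, adjusted p = 0.895, and 0.149 with the block). With the block and without the pair numbered 12 of B16F10 it was 0.96 and passed (adjusted p = 0.0225), and Thbs1 then also passed in MC38 (adjusted p = 0.00140). Neither passed without the pair numbered 11 or 3 of B16F10 or 1, 2 or 3 of MC38. In that order, limma's adjusted p with the block was 0.0869, 0.2455, 0.762, 0.543 and 0.666 for the difference between tumours. For Thbs1 in MC38 it was 0.0543, 0.0845, 0.6165, 0.351 and 0.476.

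Tgfbi (chr13:56609523-56639562, plus strand), named for its induction by TGF-beta, went the other way. It measured 688, 734 and 808 FPKM in RFP+ cells of MC38 tumours (numbers 1, 2 and 3), against 851, 964 and 981 FPKM in RFP- cells, without overlap. In B16F10 it measured 95.1, 124 and 127 FPKM in RFP+ cells (numbers 12, 11 and 3), against 118, 120.3 and 210.5 FPKM in RFP- cells, which overlapped. The log2 difference was -0.33 in both tumours and over both, with SE of 0.20, 0.20 and 0.14, and did not pass (limma, adjusted p = 0.523 in B16F10, 1 in MC38 and 0.629 over both, and 0.259, 0.760 and 0.172 with the block). When libraries were scaled to the macrophage core genes, which were 0.24 higher (log2) in RFP+ cells of B16F10 and 0.13 higher in those of MC38, the difference became -0.57 in B16F10 and -0.51 over both and passed with the block (adjusted p = 0.0299 and 0.0148), though not without it (0.288 and 0.349). On that scale with the block 13.2% of all genes were called lower in B16F10 and 3.03% over both tumours, the shares beside which the 2 Tgfbi calls stand. The same fit called 4 members higher in B16F10 (Fn1, Thbs1, F13a1 and Serpinb2), against 1.18% of all genes, 3 over both (Fn1, Thbs1 and F13a1), against 0.745%, and 0 in MC38, against 0.110%. In MC38 the adjusted p was then 0.0785 for Fn1 and 0.0727 for F13a1.

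F13a1 (chr13:36867178-37050244, minus strand), whose promoter with 2 PU.1 cores is shown above, encodes the crosslinking chain of factor XIII, which macrophages and platelets both make. It measured 422, 120.2 and 521 FPKM in RFP+ cells of B16F10 tumours (numbers 12, 11 and 3), against 111, 47.4 and 178 FPKM in RFP- cells. In MC38 it measured 19.1, 81.5 and 30.7 FPKM in RFP+ cells (numbers 1, 2 and 3), against 6.17, 52.8 and 6.84 FPKM in RFP- cells. The spread between title numbers was wide in every group, with the highest library 3.76 to 8.56 times the lowest, so the gates overlapped in both tumours, yet RFP+ was higher in 6 of 6 pairs. The log2 difference was 1.59 ± 0.79 in B16F10 (limma, adjusted p = 0.498) and 1.37 ± 0.79 in MC38 (adjusted p = 1). With the block the SE fell to 0.22 in both, with adjusted p = 0.00549 in B16F10 and 0.0265 in MC38. The B16F10 call was lost without the pair numbered 3 of B16F10 (adjusted p = 0.0670), and the MC38 call without the pairs numbered 3 of B16F10 and 1 or 3 of MC38 (adjusted p = 0.0824, 0.375 and 0.261). Genes that define platelets were near 0: the summed level of 10 platelet markers was 0.612 to 3.80 FPKM (RFP+) and 1.17 to 2.45 FPKM (RFP-) in B16F10, and 0.697 to 1.16 FPKM (RFP+) and 0.435 to 1.98 FPKM (RFP-) in MC38, with none at 1 FPKM or more in all 3 libraries of a group.

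F10 (chr8:13037308-13056676, plus strand), the zymogen of factor Xa, measured 13.8, 17.2 and 26.9 FPKM in RFP+ cells of B16F10 (numbers 12, 11 and 3), against 5.87, 14.5 and 19.2 FPKM in RFP- cells. In MC38 it measured 3.28, 10.3 and 4.05 FPKM in RFP+ cells, against 4.14, 5.69 and 2.23 FPKM in RFP- cells (numbers 1, 2 and 3). RFP+ was higher in 5 of 6 pairs, but the gates overlapped in both tumours and no test passed, with log2 differences of 0.60 ± 0.44 in B16F10 and 0.38 ± 0.44 in MC38 (limma, adjusted p = 0.577 and 1, and 0.233 and 1 with the block). F3 (chr3:121723537-121735048, plus strand), the membrane receptor that starts clotting, measured 61.6, 78.8 and 62.3 FPKM in RFP+ cells of B16F10, against 50.1, 76.3 and 50.6 FPKM in RFP- cells (numbers 12, 11 and 3). In MC38 it measured 16.02, 6.17 and 17.6 FPKM in RFP+ cells, against 13.6, 5.46 and 17.1 FPKM in RFP- cells (numbers 1, 2 and 3). Its levels followed the title number far more than the gate. The log2 difference of F3 was 0.21 ± 0.39 in B16F10 (95% confidence interval -0.622 to 1.04) and 0.14 ± 0.39 in MC38 (-0.697 to 0.970), with limma's adjusted p = 0.834 and 1, and scaling to the core genes turned the B16F10 value to -0.03.

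Plaur (chr7:24462484-24475968, plus strand), the urokinase receptor, measured 144, 145 and 135 FPKM in RFP+ cells of B16F10 (numbers 12, 11 and 3), against 109, 116 and 110.1 FPKM in RFP- cells. In MC38 it measured 858, 924 and 730.4 FPKM in RFP+ cells (numbers 1, 2 and 3), against 565, 746 and 484 FPKM in RFP- cells. The gates did not overlap in B16F10, overlapped by 1 library in MC38, and RFP+ was higher in 6 of 6 pairs. The difference was small but even: 0.34 ± 0.15 in B16F10 and 0.50 ± 0.15 in MC38 on the log2 scale (limma, adjusted p = 0.497 and 0.794, and 0.182 and 0.116 with the block). Over both tumours it was 0.42 ± 0.11 (adjusted p = 0.194) and passed with the block (0.0207), where it was lost without the pair numbered 3 of B16F10 or 1, 2 or 3 of MC38 (adjusted p = 0.0834, 0.182, 0.0700 and 0.153) and when scaled to the core genes (0.23, adjusted p = 0.0909 with the block).

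The other genes of the urokinase system were scarce. Plau (chr14:20836660-20843385, plus strand) measured 3.81, 0.537 and 4.39 FPKM in RFP+ cells of B16F10, against 0.948, 2.19 and 1.87 FPKM in RFP- cells (numbers 12, 11 and 3). In MC38 it measured 1.39, 2.65 and 4.40 FPKM in RFP+ cells, against 1.67, 4.49 and 4.46 FPKM in RFP- cells (numbers 1, 2 and 3). The gates overlapped in both tumours, with log2 differences of 0.39 ± 0.46 and -0.26 ± 0.46 (limma, adjusted p = 0.725 and 1). The message for urokinase thus lay far below that for its receptor in every library. Serpinb2 (chr1:107511423-107535478, plus strand) measured 1.56, 10.4 and 1.62 FPKM in RFP+ cells of B16F10, against 3.81 and 0.783 FPKM in RFP- cells with numbers 11 and 3, and was listed at 0 in RFP- number 12. In MC38 it measured 0.677, 0.00779 and 1.69 FPKM in RFP+ cells, against 0.788, 0.451 and 1.47 FPKM in RFP- cells (numbers 1, 2 and 3). Number 11 was the high B16F10 library in both gates, and the gates overlapped. The log2 difference was 1.05 ± 0.61 in B16F10 (limma, adjusted p = 0.513) and passed narrowly with the block (0.0485), a call lost without any 1 of the 6 pairs, B16F10 12, 11 and 3 and MC38 1, 2 and 3 (adjusted p = 0.172, 0.0816, 0.0670, 0.112, 0.0773 and 0.0852). In MC38 it was -0.16 ± 0.61 (adjusted p = 1).

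**Figure D2:**
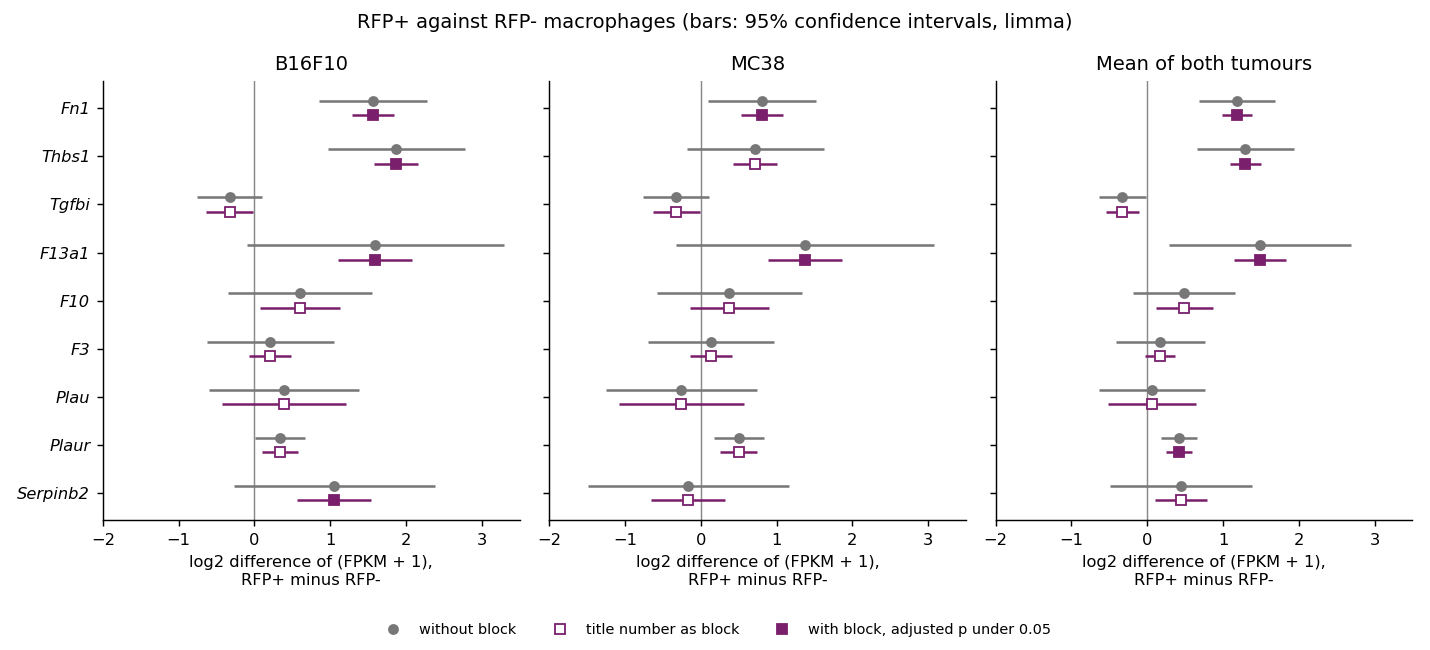
Log2 differences of (FPKM + 1), RFP+ minus RFP-, for the 9 members in B16F10, in MC38 and as the mean of both, with 95% confidence intervals from limma without (circles) and with (squares) the title number as a block. Filled squares passed with the block; the estimates are the same in both fits and the intervals narrow with the block, most for F13a1.

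Across the 9 members the median gate difference was 0.60 in B16F10, 0.38 in MC38 and 0.44 over both, beside medians of -0.01, 0.00 and 0.00 over all genes tested. RFP+ was higher in 6 of 6 pairs for 5 of 9 members (Fn1, Thbs1, F13a1, F3 and Plaur), against 4.52% of all genes. Without overlap, 3 members were higher in RFP+ of B16F10 (Fn1, Thbs1 and Plaur), against 5.72% of all genes, and 1 was higher and 1 lower in MC38 (Fn1 and Tgfbi), against 6.33% and 4.98%. Because the members were chosen with earlier results of these data known, these medians and counts describe the list and do not test it. The gate effect was not shown to differ between tumours for any member. In limma, 0 of 9 passed the test of the difference with or without the block. Of all genes, 0% passed without the block and 0.0339% with it. An unadjusted p under 0.05 was reached by 0 members without the block, against 3.85% of all genes, and by 3 with it, against 8.55%. The lowest adjusted p of a member was 0.895 without the block and 0.149 with it. Beside these gate values, the summed macrophage core genes were higher in RFP+ in 6 of 6 pairs, a sum led by Lyz2. Lyz2 averaged 6225 FPKM (RFP+) and 3876 FPKM (RFP-) in B16F10, and 18160 FPKM (RFP+) and 11140 FPKM (RFP-) in MC38. Not all core genes went this way: Csf1r, Aif1 and Fcer1g averaged lower in RFP+ than in RFP- cells of both tumours. Dendritic cell markers summed to 22.9 to 28.4 FPKM in RFP+ cells of B16F10, against 37.3 to 65.1 FPKM in RFP- cells. They summed to 81.0 to 134 FPKM in RFP+ cells of MC38, against 107 to 184 FPKM in RFP- cells. Of the 10 dendritic markers, 4 (RFP+) and 6 (RFP-) were at 1 FPKM or more in all libraries of B16F10, and 6 (RFP+) and 7 (RFP-) in those of MC38. The other lists whose sums did not overlap were 8 NK cell markers in MC38 and 8 serosal cavity macrophage markers in B16F10. The NK cell markers summed to 14.5 to 22.2 FPKM in RFP+ cells, against 26.7 to 34.05 FPKM in RFP- cells, most of it Klrk1 (mean 14.9 FPKM, RFP+, and 25.1 FPKM, RFP-), and Ncr1 was listed at 0 in RFP+ cells. The serosal cavity markers, led by Icam2, summed to 10.65 to 12.5 FPKM in RFP+ cells, against 13.5 to 20.3 FPKM in RFP- cells. The part of these lists in the gate differences was not tested.

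The second comparison set B16F10 against MC38 over both gates, 6 libraries against 6. As deposited, coagulation genes were higher in B16F10 (F13a1, F10 and F3) and the abundant matrix and urokinase receptor genes were lower (Fn1, Thbs1, Tgfbi and Plaur). These 7 of 9 members passed limma's test, 3 higher against 44.0% of all genes and 4 lower against 25.4%, so most genes differed between the tumours. With the title number as a random block, 7 members passed, 3 higher against 41.3% and 4 lower against 23.9%. The macrophage core genes were themselves 2.0 lower (log2) in B16F10, where melanocytic RNA was abundant and reads were fewer. Scaling each library to the core genes moved the median log2 difference of all genes from 0.23 to 1.90, and called 87.6% of genes higher and 3.82% lower. The part of melanocytic RNA and of depth in these differences was not tested, and the tumour line, its mice and any batch of preparation cannot be told apart.

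F13a1 had 47.4, 149 and 521 FPKM (lowest, median and highest) in B16F10, against 6.17, 24.9 and 81.5 FPKM in MC38, which overlapped. Its log2 difference was 2.89 ± 0.56 (limma, adjusted p = 0.000414), and 4.80 ± 0.46 when scaled to the core genes. F3 had 50.1, 62.0 and 78.8 FPKM in B16F10, against 5.46, 14.8 and 17.6 FPKM in MC38, without overlap, a difference of 2.34 ± 0.27 as deposited and 4.21 ± 0.31 scaled. F10 had 5.87, 15.8 and 26.9 FPKM in B16F10, against 2.23, 4.10 and 10.3 FPKM in MC38, with a difference of 1.54 ± 0.31 as deposited and 3.23 ± 0.34 scaled. All 3 coagulation members were thus higher in B16F10 on both scales, though on the core scale so were 87.6% of all genes. Expression by the tumour cells themselves was not tested for any of them. Beside F3, the melanocytic gene Dct in B16F10 (numbers 12, 11 and 3) was at 2079, 2881 and 2107 FPKM in RFP+ cells, and at 1857, 2832 and 2054 FPKM in RFP- cells, with number 11 highest in both gates, as F3 was. In MC38 the fibroblast gene Col3a1 (numbers 1, 2 and 3) was at 21.9, 12.7 and 26.3 FPKM in RFP+ cells, and at 18.4, 9.96 and 27.8 FPKM in RFP- cells, with number 2 lowest in both gates, as F3 was. Not every marker of these cell types did so. In MC38 the fibroblast gene Dcn was highest at number 2 in both gates (42.2 FPKM, RFP+, and 36.9 FPKM, RFP-). In B16F10 the melanocytic gene Pmel was highest at number 11 in RFP+ cells (2280 FPKM) but at number 12 in RFP- cells (3057 FPKM). The part of such cells in the F3 level was not tested, and Dct and Col3a1 were picked after their values were seen.

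Plaur had 109, 125 and 145 FPKM (lowest, median and highest) in B16F10, against 484, 738 and 924 FPKM in MC38, without overlap. Tgfbi had 95.1, 122 and 210.5 FPKM in B16F10, against 688, 830 and 981 FPKM in MC38, also without overlap. The log2 difference was -2.47 ± 0.11 for Plaur and -2.68 ± 0.14 for Tgfbi as deposited. Scaled to the core genes, both stayed lower in B16F10, by much less, at -0.47 ± 0.19 for Plaur and -0.68 ± 0.19 for Tgfbi (limma, adjusted p = 0.0268 and 0.00262). Fn1 had 13.03, 38.4 and 85.8 FPKM in B16F10, against 56.1, 105 and 155 FPKM in MC38. Thbs1 had 14.7, 64.7 and 186 FPKM in B16F10, against 148, 260.1 and 409.6 FPKM in MC38, and both genes overlapped between tumours. As deposited Fn1 was lower in B16F10 (-1.39 ± 0.23), but scaled to the core genes it was higher (0.57 ± 0.21, adjusted p = 0.0187). Thbs1 was lower as deposited (-2.18 ± 0.30) and did not differ detectably when scaled (-0.20, 95% confidence interval -1.0 to 0.602). Plau and Serpinb2 did not pass as deposited (-0.40 ± 0.33 and 0.75 ± 0.43, adjusted p = 0.284 and 0.140), and both were called higher in B16F10 when scaled (0.95 and 1.75, adjusted p = 0.0129 and 0.00670), Plau not with the block (0.0982).

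**Figure D3:**
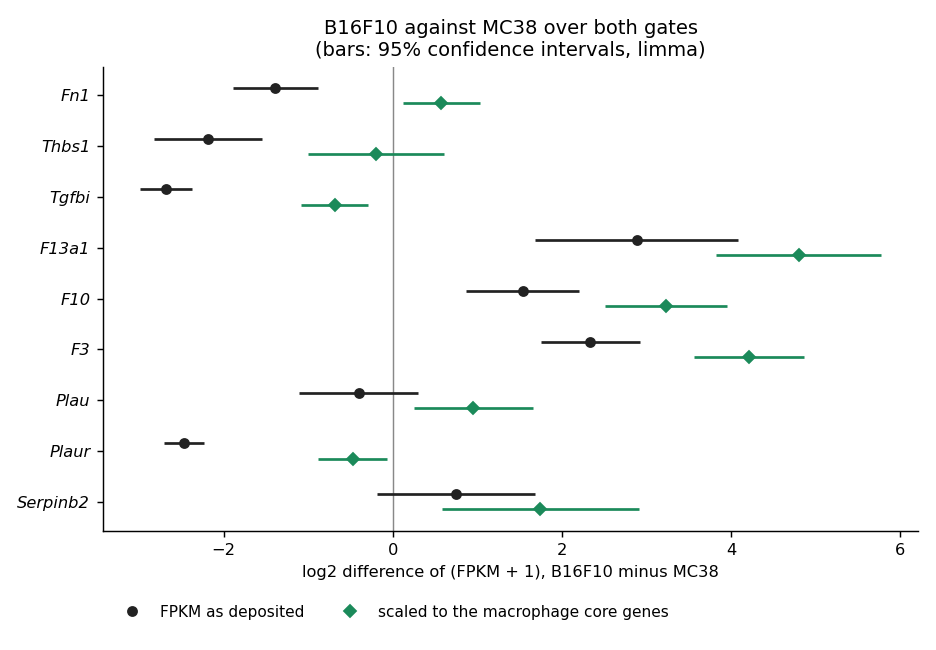
Log2 differences of (FPKM + 1), B16F10 minus MC38 over both gates (6 libraries each), with 95% confidence intervals from limma, for FPKM as deposited (circles) and after scaling to 12 macrophage core genes (diamonds). F13a1, F10 and F3 lie above 0 on both scales, Tgfbi and Plaur below 0 on both, and Fn1 and Plau change sign.

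The order of the members by mean FPKM differed between tumours. In B16F10, F13a1 led the 9 members in RFP+ cells at 355 FPKM, with 305 genes above it, and stood second to Tgfbi in RFP- cells (112 against 149.7 FPKM, ranges that overlap). In MC38, Plaur (838 FPKM) and Tgfbi (743 FPKM) led in RFP+ cells, with 99 and 119 genes above them, and Tgfbi (932 FPKM) and Plaur (598 FPKM) in RFP- cells, with 81 and 154 above. Thbs1 came next in both gates of MC38, at 351 and 215 FPKM. Plau and Serpinb2 took the last 2 places in every group, between 0.793 and 4.52 FPKM, and the ranges of both overlapped in each group but RFP- cells of MC38, where every Plau value lay above every Serpinb2 value.

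The members fell into separate patterns between libraries of 1 group. Number 3 was highest for Fn1, F13a1, F10 and Tgfbi in both gates of B16F10, and number 11 for Thbs1, F3, Plaur and Serpinb2. In MC38 number 2 was highest in both gates for Fn1, Thbs1, F13a1, F10 and Plaur, and lowest for F3 and Serpinb2. Marker sums moved with these numbers: in B16F10 number 11 had the lowest macrophage core sum (6769 FPKM, RFP+, and 5301 FPKM, RFP-) and the highest melanocytic sum (10830 FPKM in each), and number 3 had the highest neutrophil sum (366 FPKM, RFP+, and 843 FPKM, RFP-, against 33.0 to 126 FPKM in the other 4 libraries). Their part in these orders was not tested. Further, F13a1 and F3, both higher in B16F10, moved in opposite ways within groups: after removing group means Pearson's r was -0.88 over the 12 libraries, as a description, while F13a1 and Fn1 moved together (r = 0.89). Each pair of libraries with 1 number shares whatever the number marks, so these values rest on fewer than 12 independent samples.

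Across the 12 libraries, the 3 genes most like each member were sought among 7759 genes with a mean of at least 5 FPKM. For F13a1 they were Ccl6 (r = 0.96), a chemokine gene of macrophages, Pf4 (r = 0.95), which encodes platelet factor 4, and Cbr2 (r = 0.94), a carbonyl reductase of resident-like macrophages. Pf4 measured 1493, 1206 and 2129 FPKM in RFP+ cells of B16F10 (numbers 12, 11 and 3), against 696, 280.2 and 520.2 FPKM in RFP- cells. In MC38 Pf4 measured 249, 433 and 283 FPKM in RFP+ cells (numbers 1, 2 and 3), against 86.3, 216 and 105 FPKM in RFP- cells. Like F13a1, it was higher in RFP+ in every pair, with number 2 highest in both gates of MC38. For Thbs1 the nearest were Cxcl2 (r = 0.98), a neutrophil-attracting chemokine, Nt5e (r = 0.97), the ectonucleotidase CD73, and Jag1 (r = 0.97), a Notch ligand. Fn1 was most like Fcrlb (r = 0.97), Pygl (r = 0.93), a glycogen phosphorylase, and Msr1 (r = 0.93), a scavenger receptor. Plaur was most like Cpq (r = 0.995), Trem1, a myeloid receptor (r = 0.991), and Dpep2 (r = 0.99). Tgfbi was most like H2-Ob, Tmem50b and Adgrg5 (r = 0.99 each). F3 was most like Ccdc91 (r = 0.99), Psmc3ip (r = 0.99) and Xpo5 (r = 0.98). F10 was most like Add3, Ugdh and Cd164 (r = 0.94, 0.94 and 0.93). Plau was most like Ankrd16, Pold3 and Srrm2 (r = 0.82, 0.80 and 0.79), and Serpinb2 was most like Tcea1, Klhl24 and Pnpla8 (r = 0.90, 0.89 and 0.89). F3, Plaur and Tgfbi differed strongly between the tumours, which 6 libraries each share, so part of these values is the difference between tumours. After removing group means, r with the 3 genes named was 0.92 to 0.95 for F3, 0.77 to 0.90 for Tgfbi and 0.59 to 0.72 for Plaur.

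**Figure D4:**
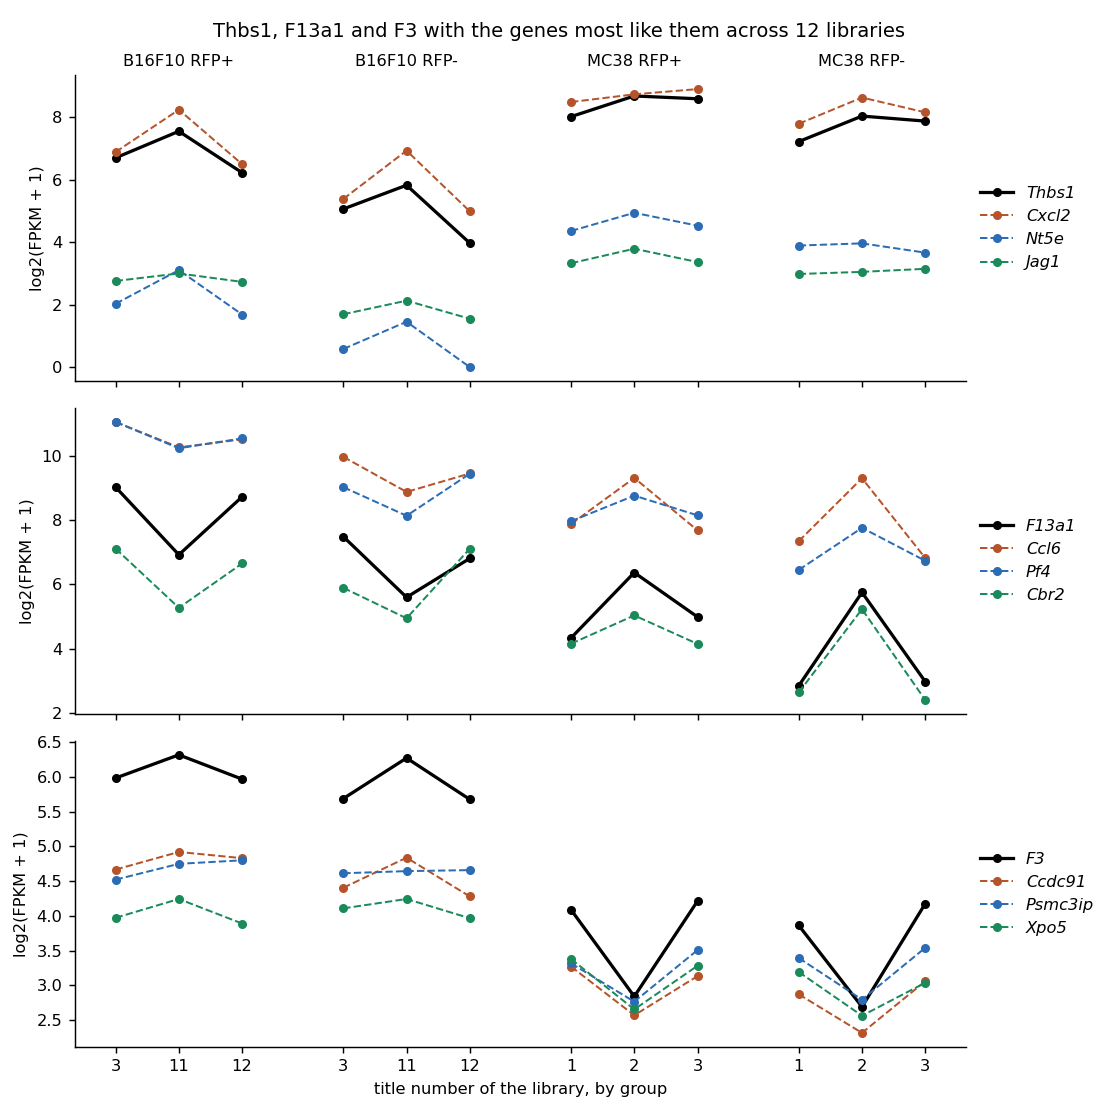
Log2(FPKM + 1) of Thbs1, F13a1 and F3 (black) with the 3 genes most like each, in the 12 libraries ordered by group and title number; lines join libraries of 1 group only to guide the eye. F13a1, Ccl6, Pf4 and Cbr2 share the low point at number 11 in B16F10 RFP+ and the peak at number 2 in MC38, where F3 and the genes like it are lowest.

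The rest of the pathway was read from 5 lists that leave out the 9 members. Beside their gate counts, 0.127% (B16F10), 0.0254% (MC38) and 0.339% (both) of all genes were called higher without the block. With it these shares were 0.830%, 0.356% and 1.32%. Of 12 tested coagulation and anticoagulation genes (32 in the files), 0 passed in either gate comparison with or without the block, with medians of 0.03 in B16F10 and 0.05 in MC38. The smallest p in B16F10 belonged to Lman1 and Mcfd2, which carry factors V and VIII out of the endoplasmic reticulum (0.48 and 0.30, limma, adjusted p = 0.351 and 0.484). F7, the partner of tissue factor and the gene next to F10 on chromosome 8, was picked after its values were seen. It measured 30.6, 24.3 and 41.5 FPKM in RFP+ cells of B16F10 (numbers 12, 11 and 3), against 12.8, 6.82 and 23.2 FPKM in RFP- cells. In MC38 F7 measured 0.683, 10.7 and 3.00 FPKM in RFP+ cells (numbers 1, 2 and 3), against 2.29, 9.95 and 1.14 FPKM in RFP- cells. The gates did not overlap in B16F10, but F7 passed neither without nor with the block there (1.23 ± 0.67, adjusted p = 0.507 and 0.0919), and its tumour difference of 2.31 ± 0.48 passed (adjusted p = 0.000704).

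Among 14 tested matrix glycoprotein and crosslinker genes (23 in the files), 1 was higher in RFP+ of B16F10 and 2 over both tumours, and 3 and 3 with the block. The shares of all genes called higher were 0.127% and 0.339%, and 0.830% and 1.32% with the block. Spp1, which encodes osteopontin, averaged 3687 ± 882 FPKM (RFP+) and 551 ± 129 FPKM (RFP-) in B16F10, and 546 ± 205 FPKM (RFP+) and 191 ± 77.0 FPKM (RFP-) in MC38 (SD, n = 3 each). It rose in B16F10 (2.74 ± 0.30, limma, adjusted p = 0.00150) and passed in MC38 with the block (1.52 ± 0.30, 0.116 without it and 0.000553 with it). Ecm1, extracellular matrix protein 1, averaged 83.2 ± 14.1 FPKM (RFP+) and 39.9 ± 12.2 FPKM (RFP-) in B16F10, and 345 ± 30.2 FPKM (RFP+) and 202 ± 47.9 FPKM (RFP-) in MC38, and rose over both tumours (0.93 ± 0.16, adjusted p = 0.0194). Emilin2 was the other gene called with the block, over both tumours by 0.53 ± 0.20 (adjusted p = 0.0126). Scaled to the core genes, 1 gene of the list passed in B16F10 and 1 over both tumours.

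Of 14 tested receptors of the members (16 in the files), 1 passed in B16F10 and over both tumours, and 2 with the block. For this and the next 2 lists, 0.127% (B16F10) and 0.339% (both) of all genes were called higher without the block. With it the shares were 0.830% and 1.32%. Cd36, a receptor of thrombospondin 1, averaged 102 ± 3.00 FPKM (RFP+) and 34.8 ± 13.6 FPKM (RFP-) in B16F10, and 34.5 ± 8.0 FPKM (RFP+) and 20.4 ± 5.73 FPKM (RFP-) in MC38. It rose by 1.60 ± 0.27 in B16F10 (limma, adjusted p = 0.0431) and 1.17 ± 0.19 over both (0.0160), while scaled to the core genes no receptor passed. Itgam, the CD11b chain by which the cells were sorted and also a core gene, passed with the block in B16F10 (0.88 ± 0.24, adjusted p = 0.00675). Of 7 fibrinolysis and plasminogen binding genes (14 in the files), 0 passed without the block and 1 over both tumours with it, the plasminogen docking gene Anxa2 (0.45 ± 0.16, adjusted p = 0.491, and 0.0285 with the block). Of 16 tested TGF-beta pathway genes (18 in the files), 0 passed in any gate comparison, led in B16F10 by Ltbp3 (-0.42, adjusted p = 0.502) and over both by Smad7 (0.26, 0.698).

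Between the tumours most genes of these lists differed, and the direction depended on the scale. The counts stand beside 44.0% of all genes called higher and 25.4% lower as deposited, and 87.6% higher and 3.82% lower when scaled. As deposited, 12 of 14 receptors were lower and 2 higher in B16F10, and 12 of 16 TGF-beta genes were lower and 1 higher, but scaled to the core genes 2 receptors were lower and 7 higher, and 4 TGF-beta genes were lower and 9 higher. Examples are Cd47, another thrombospondin 1 receptor, at -1.74 ± 0.09 as deposited and 0.25 scaled, and the integrin genes Itgb2 and Itgam, at -2.27 and -2.31 as deposited and -0.28 and -0.34 scaled. Itgam is itself among the core genes used for the scaling, so its scaled value is partly fixed by that step. Lower on both scales were the latent TGF-beta binding protein gene Ltbp1 (-3.39 and -2.47), the transglutaminase gene Tgm2 (-3.57 and -1.59), the fibrillin gene Fbn1 (-2.59 and -1.78) and Thbs2, the closest relative of Thbs1 (-3.07 and -2.15). Fbn1, Thbs2 and Ltbp1 averaged at most 0.123 FPKM in either gate of B16F10, and 12 fibroblast markers summed to 3.11 to 3.72 FPKM (RFP+) and 3.57 to 4.26 FPKM (RFP-) in B16F10, against 64.1 to 71.7 FPKM (RFP+) and 52.9 to 66.6 FPKM (RFP-) in MC38. In MC38 most of this sum was Dcn (mean 38.0 FPKM, RFP+, and 34.2 FPKM, RFP-) and Col3a1 (20.3 and 18.7 FPKM). Only 4 of the 12 markers were at 1 FPKM or more in all libraries of either gate of MC38, and 1 in B16F10. Col1a1, Col1a2, Pdgfrb, Thy1 and Fap averaged at most 0.136 FPKM in MC38, and Lum was higher in B16F10. The part of the fibroblast markers in these genes was not tested. The elastic fibre genes Fbln5 and Fbln1 were higher in B16F10 on both scales (6.09 and 7.29 for Fbln5, 3.78 and 5.20 for Fbln1), with Fbln5 at 94.7 ± 10.8 FPKM (RFP+) and 91.4 ± 9.87 FPKM (RFP-) there, against 0.369 ± 0.174 FPKM (RFP+) and 0.401 ± 0.134 FPKM (RFP-) in MC38. Of the coagulation list 6 were higher and 5 lower in B16F10 as deposited, and 11 higher and 1 lower when scaled, where 87.6% of all genes were higher. Higher on both scales were Ggcx (1.74 and 3.49), the vitamin K dependent carboxylase that matures factors VII and X, and Tfpi (1.24 and 3.11), the inhibitor of the tissue factor pathway. Of the fibrinolysis list, Eno1, a plasminogen binding enzyme, was higher on both scales (1.71 and 3.71), and Plat, tissue plasminogen activator, was lower as deposited (-1.99) and did not pass when scaled (-0.50).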

How the data were processed

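Each library came as a table of gene symbols with FPKM values made by the authors, the unit per the file headers. The tools, per the submitters' processing notes, included Cuffdiff 2.2.1, TopHat2 2.1.1, SAMtools 0.1.18 and Bowtie2 2.2.8, with the mm10 build. RNA was taken with TRI Reagent and libraries were made with SMART-Seq HT and Nextera XT kits, per the labels' protocols. Not given in the sources used here are the strand setting, the annotation, any read filters and how libraries were scaled. Reads are not used here, so no counting error is given. The relative depth came from the most common ratio of a library's FPKM to that of MC38 RFP+ number 2. It was taken over genes above 0 in both and under 0.5 FPKM in that library. In B16F10 libraries 56 to 120 genes held the most common ratio, of 1941 to 2749 compared.

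FPKM were used as log2(FPKM + 1), which understates changes of low genes. Tests were two-sided in limma 3.58.1 (R 4.3.3, eBayes with a trend) on 4 group means, with 8 residual degrees of freedom, adjusted by the Benjamini-Hochberg method over 11808 genes. The threshold was an adjusted p under 0.05, and the script was tested on simulated data. The block left 4 residual degrees of freedom for the gate comparisons. Same-numbered RFP+ and RFP- libraries deviated from their group means together (r = 0.228 to 0.443 over 6 pairs, against -0.306 to 0.0178 for 12 pairs of different numbers), so the numbers were taken to pair them. The design text gives 3 mice without saying which library is whose, so p-values measure the spread between libraries, which may be technical.

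The members and lists were chosen with earlier results of these data known. Named were all members, Arg1, up to 6 called genes per list and comparison (otherwise the 2 with the smallest p) and the 3 genes most like each member; genes outside this rule are said to be so chosen, and Emilin2, Itgam and Anxa2 were named for passing with the block. Alternatives were other pseudocounts (0.1 and 5), other filters (none, and 5 FPKM), quantile normalization, scaling to 12 macrophage core genes, the compared groups alone, the block and each library left out. Plots were made with matplotlib 3.10.9.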

Additional observations from a re-analysis of the deposited data

How the results depend on the processing

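Between tumours, 7 members were called in every fit that left out a single library, changed the pseudocount or filter or added the block, and 8 with the block and without B16F10 number 12, where Serpinb2 passed too (1.2, adjusted p = 0.0396), but which members passed changed when libraries were scaled to the core genes: Fn1 turned to 0.57, Plau to 0.95, and Thbs1 no longer passed. The counts of members called in the gate comparisons moved more. Over both tumours, 1 member was called, and 0 with a pseudocount of 0.1, with no filter or scaled to the core genes; leaving out single libraries gave 0 to 1, as it did in B16F10, with 0 to 0 in MC38 and for the difference between tumours, and 7 to 7 between tumours. With the title number as a replicate block, 4 were called in B16F10, 2 in MC38 and 4 over both. The next settings were chosen after seeing the data. With the block and without 1 pair, the counts in B16F10, in MC38 and over both were 3, 4 and 4 (B16F10 number 12 left out, with 1 for the difference between tumours), 3, 2 and 4 (number 11), 2, 1 and 3 (number 3), 3, 0 and 3 (MC38 number 1), 3, 1 and 3 (number 2) and 3, 0 and 3 (number 3). With the block and the core scaling they were 5 (4 higher, and Tgfbi lower), 0 and 4 (3 higher, and Tgfbi lower). The shares of all genes called in the fits without 1 pair are not given here, so those counts have no background beside them. Without B16F10 number 12 the MC38 difference of Thbs1 stayed at 0.72, while its adjusted p fell from 0.0524 to 0.00140 (limma with the block).

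Signs turned only for values that passed no test, apart from Fn1 and Plau between tumours, also with the block and the core scaling (0.57 and 0.95). With the core scaling, with or without the block, F3 turned to -0.029 in B16F10, -0.0071 over both and -0.043 for the difference between tumours, and Plau to -0.057 over both. The difference between tumours of Tgfbi was 0.0053 with a pseudocount of 5 and 0.14 with quantile normalization, and with the block it was 0.19, 0.0078 and 0.021 without B16F10 number 3, MC38 number 1 and MC38 number 3. With the block, Plau was -0.072 in B16F10 and -0.16 over both without B16F10 number 12, and -0.064 over both without B16F10 number 3. The difference between tumours of F10 was -0.027 and -0.098 without B16F10 number 12 and MC38 number 1, that of F13a1 was -0.16 without MC38 number 2, and Serpinb2 in MC38 was 0.016 without that pair. Leaving out single libraries, the ranges that crossed 0 were -0.047 to 0.65 for F10, -0.31 to 0.57 for F3, -0.60 to 0.042 for Plau and -0.52 to 0.19 for Serpinb2 in MC38. Over both tumours they were -0.047 to 0.39 for F3 and -0.11 to 0.35 for Plau. For the difference between tumours they were -0.23 to 0.65 for F10, -0.73 to 0.87 for F13a1, -0.36 to 0.52 for F3 and -0.14 to 0.27 for Tgfbi. The cause of these turns was not tested.

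B16F10 libraries were about 3 times shallower, so Plau and Serpinb2 rest on few reads there, and with 3 libraries a group the blocked fits have 4 residual degrees of freedom.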
